A study of Hordeum vulgare with 4 samples.

Results

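The loci described here are barley gene loci whose genomic window in the deposited table spans at least 20 kb, called long loci in what follows. All rows of 1 locus identifier on chromosomes 1H to 7H with a HORVU gene model name were joined, and the span was read from the table's locus column. This kept 1716 of 17036 loci, or 10.1%, with 5811 of the 49614 transcripts. The label needs a limit. The window is not always that of 1 gene: 870 long loci lay in 332 windows that they shared with at least 1 other locus, and 846 (49.3%) were alone in their window among the loci listed, against 90.4% of the shorter loci. Windows of several loci held up to 17 of them, so that for a locus in a shared window the span describes the window and not the gene. Results are therefore given for both kinds of window.

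Leaf RNA of barley, cultivar Golden Promise, was sequenced in 2 groups of 2 samples. The transgenic plants overexpressed HvHSFA6a, which encodes a heat stress transcription factor, and their samples are labelled as heated at 42 °C for 30 minutes. The wild-type plants were not transformed, and their samples are labelled as controls. Plants were 3 weeks old at sampling and had been raised under days of 18 °C, nights of 16 °C and a 16 h photoperiod, and a chamber at 34 °C is named for plants of both kinds. Genotype and labelled heat cannot be told apart in this design. The labels used here do not name the transgene's promoter, and whether the transgenic samples are 1 line is not stated. HvHSFA6a itself was not analysed here, because HORVU names carry no product, and for the same reason the leaf label could not be checked against marker genes.

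Each transcript had 1 value per group, in whole FPKM (fragments scaled to transcript length and to the depth of sequencing), and values of single samples were not used here. Differences below therefore lack a check over replicates, and sequencing depth is unknown. Over 51141 transcripts the values summed to 949171 FPKM in transgenic leaves, against 942627 FPKM in wild-type leaves. Directions follow the column headers of the table. The authors' words for a rise or fall ran the other way in all 1255 transcripts that carried one, so that exchanged headers would turn each direction given here. A locus was given the sum of its transcripts' FPKM. A call was a transcript whose p-value in the authors' deposited table passed 0.05 after Benjamini-Hochberg adjustment over all transcripts, and a locus held a call where at least 1 of its transcripts did.

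Barley has a large genome made mostly of repeated sequence, and long introns in cereal genes often hold transposable elements. Genes are dense towards the chromosome ends, while the regions around the centromeres recombine little and hold fewer genes. RNA polymerase must cross a whole gene before its transcript is finished, and splicing removes the introns, so that a long gene can give an mRNA no longer than that of a short one. Heat stress transcription factors bind heat shock elements in promoters and switch on genes for chaperones and other protective proteins. Plants under heat are known to change both the amount of many mRNAs and how they are spliced.

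Spans of the long loci had a median of 62417 bases, with quartiles of 32238.5 and 131332 bases, and reached 953249 bases. Windows of 1 locus were shorter, with a median of 38859.5 bases and a longest of 567663 bases. The mRNA took up little of this space. The longest transcript of a long locus had a median of 1905 nt, against 1749 nt in shorter loci. It covered a median of 2.70% of the window, or 4.86% in windows of 1 locus, against 47.0% in shorter loci. The percent is taken of the span by which the loci were chosen, so its contrast with shorter loci follows largely from that choice. In shared windows the span also covers other loci. Long loci made up between 7.92% of loci on 1H and 13.4% on 2H. Along the chromosomes, each divided into 10 parts of equal length, the share was 24.5% in the fifth part and 6.96% in the second, with 13.3% in the first. The middle of the chromosomes was thus richer in long loci than the parts beside it.

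Loci on either side of the threshold had low to middling levels and no call. The locus just inside, of 20003 bases on 3H from 457705107 to 457725109, had 13 FPKM in transgenic leaves, against 17 FPKM in wild-type leaves, and the next, of 20089 bases, had 18 FPKM in transgenic leaves, against 17 FPKM in wild-type leaves. The locus just outside, of 19959 bases on 1H from 142426894 to 142446852, had 24 FPKM in transgenic leaves, against 31 FPKM in wild-type leaves, and the one after it, of 19946 bases, had 5 FPKM in transgenic leaves, against 2 FPKM in wild-type leaves.

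Long loci were expressed at about the level of shorter ones. The mean of both groups had a median of 8.25 FPKM over long loci, with quartiles of 2.5 and 23.5 FPKM, and of 8 FPKM over shorter loci, with quartiles of 2.5 and 25 FPKM. Summed over long loci the values came to 154413 FPKM in transgenic leaves, against 161620 FPKM in wild-type leaves. The 3 highest loci made up 42.7% of that sum for transgenic and 51.4% for wild-type leaves, so the totals describe those loci more than the set.

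The highest was a locus on 3H from 694854886 to 694908686, in a window of 2 loci, with 38403 FPKM in transgenic leaves, against 57356 FPKM in wild-type leaves over 11 transcripts. None of these transcripts passed, the smallest adjusted p being 0.346. Its longest transcript is 694 nt, and FPKM is scaled to transcript length. The second, on 2H from 20579138 to 21146800, had 22 transcripts, the most of any long locus, and the largest window of 1 locus. It summed to 16502 FPKM in transgenic leaves, against 10999 FPKM in wild-type leaves, with a smallest adjusted p of 0.689. The third, on 3H from 427499139 to 427584386, had 11104 FPKM in transgenic leaves, against 14707 FPKM in wild-type leaves. Loci on 5H from 642911089 (5782 FPKM in transgenic and 6196 in wild-type leaves) and on 4H from 492194226 (4145 FPKM in transgenic and 4520 FPKM in wild-type leaves) completed the 5 highest. None of the 5 held a call.

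**Figure D1:**
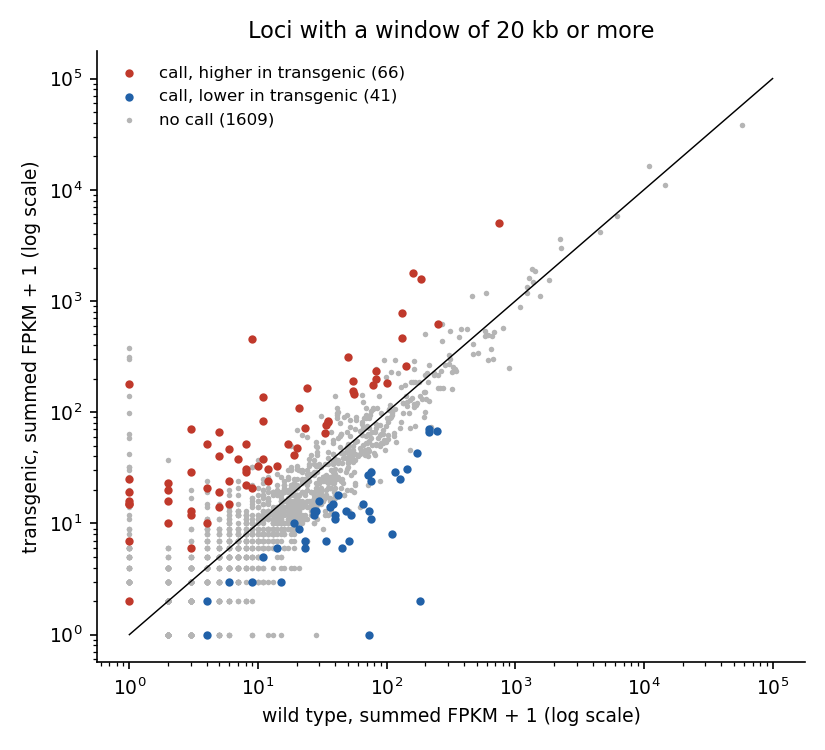
Summed FPKM + 1 of each long locus in the transgenic group (vertical, log scale) against wild type (horizontal, log scale), with 66 loci holding a call higher in the transgenic group, 41 holding a call lower in it, and 1609 with no call. The line marks equal values; the 5 highest loci lie near it, and the points in the left column at 1 are loci listed at 0 in wild-type leaves.

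Long loci were listed with more transcripts than shorter ones. They had a mean of 3.39 transcripts, against 2.86 in shorter loci and 2.87 in shorter loci weighted to the same classes of level. The difference came with windows of 1 locus, where the mean was 3.88 transcripts, against 2.94 in shorter loci alone in their window at matched level. In shared windows it was 2.90, against 2.79. Loci with 1 transcript were 25.9% of the long loci and 32.4% of the shorter ones. Distinct transcript starts averaged 2.37 per long locus and 1.998 per shorter locus. These differences were not particular to spans of 20 kb or more. Loci of 10 to 20 kb had a mean of 3.66 transcripts and 2.56 starts, and 18.8% had 1 transcript. Those of 5 to 10 kb had a mean of 3.49 transcripts, and those under 2 kb one of 1.58.

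The table marks each transcript with a class code. The code "=" stands for a match to the whole intron chain of a gene model, and "j" for a transcript that shares at least 1 splice junction with the model but not the chain, as these signs are commonly used. All but 290 of the long loci's transcripts carried "=", so that "j" made up 4.99% of them, against 4.05% in shorter loci. At least 1 "j" transcript was listed in 14.0% of long loci, against 10.04% of shorter loci at matched level and 12.2% at matched level and number of transcripts. The difference narrowed when the number of transcripts was matched as well, and it turned with the kind of window. In windows of 1 locus 15.2% of long loci had a "j" transcript, against 9.80% of shorter loci at matched level, and in shared windows 12.8%, against 14.3%. By span, the share was 2.55% of loci under 2 kb and 9.77% from 2 to 5 kb. It was 14.4% from 5 to 10 kb and 13.9% from 10 to 20 kb, so it was not particular to 20 kb or more. Of the "j" transcripts of long loci 4 of 290 were called (1.38%), against 1.07% in shorter loci, and of the "=" transcripts 112 of 5521 (2.03%), against 4.68% of "=" transcripts in shorter loci and 4.27% over all transcripts of the table, where 2.70% were called higher and 1.58% lower in the transgenic group.

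Several transcripts of 1 long locus often differed in direction. Of 1271 long loci with more than 1 transcript, 623 (49.0%) had transcripts on both sides, some higher and some lower in the transgenic group, against 45.6% of shorter loci. In the 591 of them that summed to at least 10 FPKM in both groups, the leading transcript held a median of 57.6% of the locus sum in transgenic and 58.8% in wild-type leaves, against 64.7% and 65.7% in shorter loci. Of these, 540 had a single leading transcript in each group, and the leader was another transcript in 64 (11.9%), against 9.47% in shorter loci. The comparisons with shorter loci in this paragraph were not matched for level or for number of transcripts. Long loci were listed with more transcripts, and the part of that number in the differences was not tested. No long locus held calls in both directions, and 9 held calls in more than 1 transcript.

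Calls were fewer in long loci. A call was held by 107 of 1716 long loci, or 6.24% (exact Clopper-Pearson 95% interval 5.14% to 7.49%), against 12.2% of shorter loci and 11.6% of all loci. Of these, 66 were higher in the transgenic group and 41 lower, where 7.24% of all loci held a call for higher and 4.34% one for lower. Such intervals take loci as independent, which those of 1 window are not, and cover counting error only. Shorter loci weighted to the level classes of the long loci also held calls in 12.2%. Weighted also for the number of transcripts the share was 10.9%, for the length of the longest transcript 11.7%, and for the position along the chromosome 11.7%. The share was below that of shorter loci in each of the 8 classes of level. It was 1.30% against 7.89% from 2 to 5 FPKM, 6.64% against 14.6% from 10 to 20 FPKM, and 15.4% against 21.4% at 100 FPKM and above (9.66% to 22.8% and 19.1% to 23.9%). The intervals overlapped in each class from 20 FPKM up and were apart in each class below it. With p under 0.05 and no adjustment, 336 long loci (19.6%) passed, against 29.0% of shorter loci and 28.0% of all loci.

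**Figure D2:**
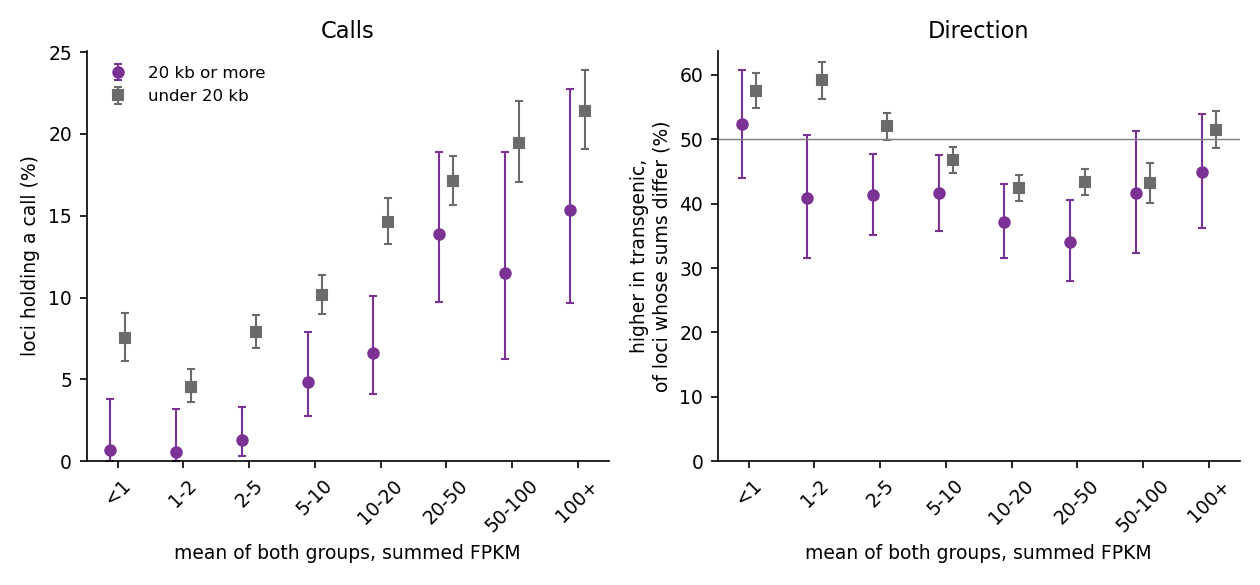
Share of loci holding a call (left, percent) and share of loci higher in the transgenic group among loci whose sums differ (right, percent), by class of the mean summed FPKM of both groups, for loci of 20 kb or more (circles) and shorter loci (squares). Bars are exact 95% intervals over loci; the long loci lie below the shorter ones in every class of both panels, with overlapping intervals in several.

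Sharing a window and having few calls went together. In windows of 1 locus, 64 long loci (7.57%) held a call, against 12.9% of shorter loci alone in their window, 13.2% of these at matched level and 10.4% at matched level and number of transcripts. In shared windows the share was 4.94% in long loci and 5.42% in shorter ones, a difference within the interval of the long loci (3.60% to 6.60%). The share was lower with more loci per window, at 7.01% in windows of 2, 3.92% in windows of 3 and 2.74% in windows of 4 or 5. None of 78 loci in windows of 6 or more was called, for which the exact interval reaches 4.62%, and 2 of them had an unadjusted p under 0.05.

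The span itself had no single direction in its relation to calls. Among loci alone in their window, 21.3% under 2 kb held a call, 12.6% from 2 to 5 kb, 8.34% from 5 to 10 kb and 5.99% from 10 to 20 kb. Beyond the threshold the share was 5.74% from 20 to 50 kb, 8.88% from 50 to 100 kb and 14.6% from 100 to 200 kb (15 of 103 loci, 8.39% to 22.9%), and 1 of 24 loci of at least 200 kb was called. The decline thus took place below 20 kb.

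**Figure D3:**
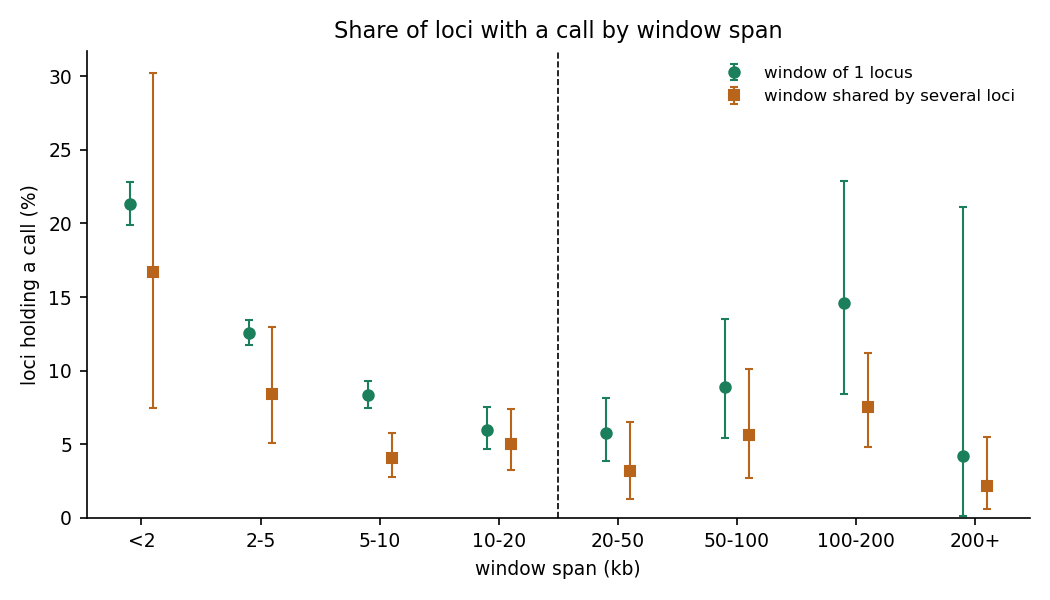
Share of loci holding a call (vertical, percent) by window span in kb (horizontal), for loci alone in their window (circles) and loci in shared windows (squares), with exact 95% intervals. The dashed line is the threshold of 20 kb; circles fall to 5.99% before it and stand at 14.6% from 100 to 200 kb.

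On the scale of log2(sum + 1), 7.81% of long loci differed by at least 4-fold, against 8.09% of shorter loci. The kinds of window ran opposite ways, with 6.50% of long and 8.27% of shorter loci in windows of 1 locus, and 9.08% of long and 6.36% of shorter loci in shared windows. Among transcripts with such a change the share called was lower in long loci. Of 170 transcripts of long loci with a 4-fold change in FPKM + 1 and at least 10 FPKM in a group, 48 (28.2%, interval 21.6% to 35.6%) were called, against 42.4% in shorter loci (39.8% to 45.1%) and 40.2% over the table. Windows of 1 locus gave 37.7% in long and 44.3% in shorter loci, with overlapping intervals, and shared windows gave 21.8% and 26.9%. At 100 FPKM and above, 13 of 27 such transcripts of long loci were called (48.1%), against 78.2% in shorter loci. The labels and headers do not say how the authors' test treated loci of shared windows, and its part in these shares was not tested.

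Although most calls in long loci were for higher values in the transgenic group, the long loci as a whole lay lower in it. The summed level was higher in the transgenic group in 630 long loci, lower in 913 and equal in 173. Among those that differed, 40.8% were higher (38.4% to 43.3%), against 48.5% of shorter loci, 48.3% of these at matched level and 47.0% at matched level and number of transcripts. The median change of long loci was -0.17 on the scale of log2(sum + 1) (interval of the median -0.22 to -0.07), against 0 in shorter loci. The direction was not even over the kinds of window. In windows of 1 locus 262 long loci were higher and 516 lower, or 33.7% higher (30.4% to 37.1%), with a median change of -0.32, against 48.7% of shorter loci alone in their window and 45.3% to 48.0% of these under the 4 ways of matching. In shared windows the share was 48.1% in long loci and 45.9% in shorter ones. Scaling matters for this count: the table's median log2 ratio was -0.09 over 7706 transcripts with at least 10 FPKM in both groups. Centred on it and without equal sums, 42.2% of long loci were higher, against 49.95% of shorter loci, and in windows of 1 locus 35.0%, against 50.2%.

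This lean was graded and began well below 20 kb. Of loci alone in their window, 58.4% under 2 kb were higher in the transgenic group, 51.5% from 2 to 5 kb, 39.9% from 5 to 10 kb and 35.7% from 10 to 20 kb. It was deepest from 20 to 50 kb, where 133 loci were higher and 334 lower (28.5%, 24.4% to 32.8%). Longer windows leaned less, with 36.9% from 50 to 100 kb, 49.5% from 100 to 200 kb and 47.6% of 21 loci at 200 kb or more. Shared windows showed no such gradient beyond 2 kb, with shares between 45% and 52.6%.

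**Figure D4:**
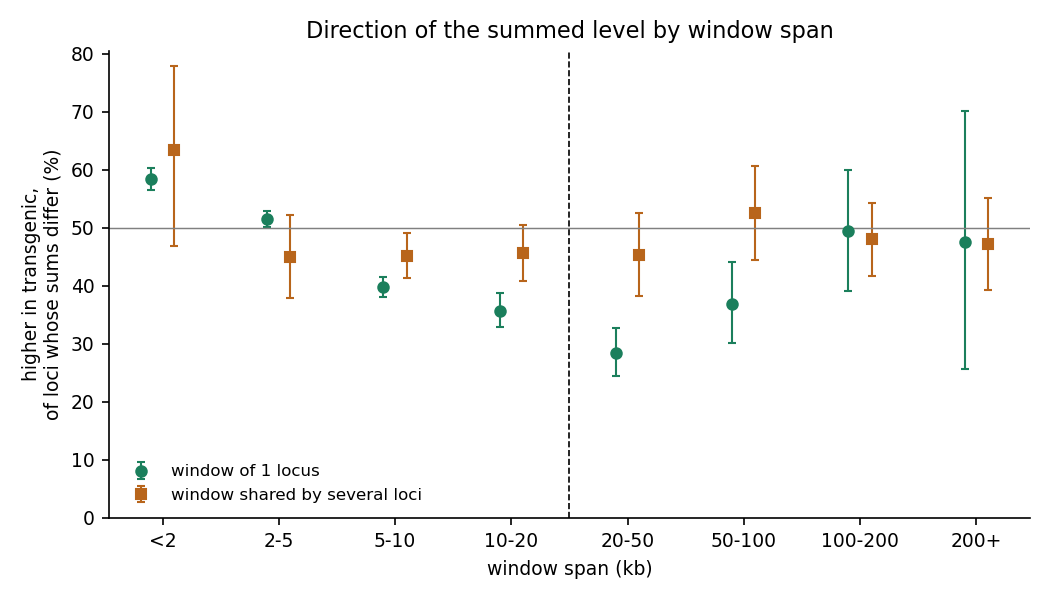
Share of loci with a higher sum in the transgenic group among loci whose sums differ (vertical, percent) by window span in kb (horizontal), for loci alone in their window (circles) and in shared windows (squares), with exact 95% intervals. The horizontal line is 50% and the dashed line the threshold of 20 kb; circles descend to 28.5% from 20 to 50 kb and return to about 50% from 100 kb.

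Between 500 nt and the longest class, the share higher in the transgenic group was lower at the long end. Of long loci whose longest transcript reached 4000 nt, 25% were higher in the transgenic group, against 35.7% of shorter loci. At 500 to 1000 nt the shares were 54.0% of long and 55.7% of shorter loci. Under 500 nt they were 40% and 47.1%, which did not follow this order. Long loci with at least 6 transcripts were higher in 32.2%, against 36.5% of shorter loci. The direction of change thus varied with transcript length and number in long and shorter loci alike.

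The lean was largest in the middle of the chromosomes. In parts 4 to 6 of 10, 75 long loci were higher in the transgenic group and 234 lower, or 24.3% higher (19.6% to 29.4%), with a median change of -0.44. Of shorter loci there 43.2% were higher. In parts 1 to 3 the share was 45.8% of long loci and 47.4% of shorter ones, and in parts 7 to 10 it was 44.3% and 50.1%. In windows of 1 locus it was 21.1% in parts 4 to 6 (54 higher, 202 lower), 41.7% in parts 1 to 3 and 38.5% in parts 7 to 10. Each of the 7 chromosomes had the same order, with 17.5% on 4H to 31.6% on 7H in the middle, and 36.0% on 4H to 51.0% on 7H in the other parts. Shorter loci had this order on each chromosome too, so it was not particular to long loci. Their shares were 38.4% on 7H to 46.5% on 1H in the middle, and 47.4% on 1H to 51.4% on 4H elsewhere. Of the long loci in parts 4 to 6, 13 of 342 were called (3.80%), against 135 of 1774 shorter loci (7.61%). Both kinds thus held fewer calls in the middle than over all parts. Of the 13, 6 lay higher in transgenic leaves and 7 lay lower. With ratios centred, where equal sums become higher, 33.3% of long loci in parts 4 to 6 were higher, with a median change of -0.36. Of shorter loci in these parts 51.8% were then higher, with a median change of 0.06.

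**Figure D5:**
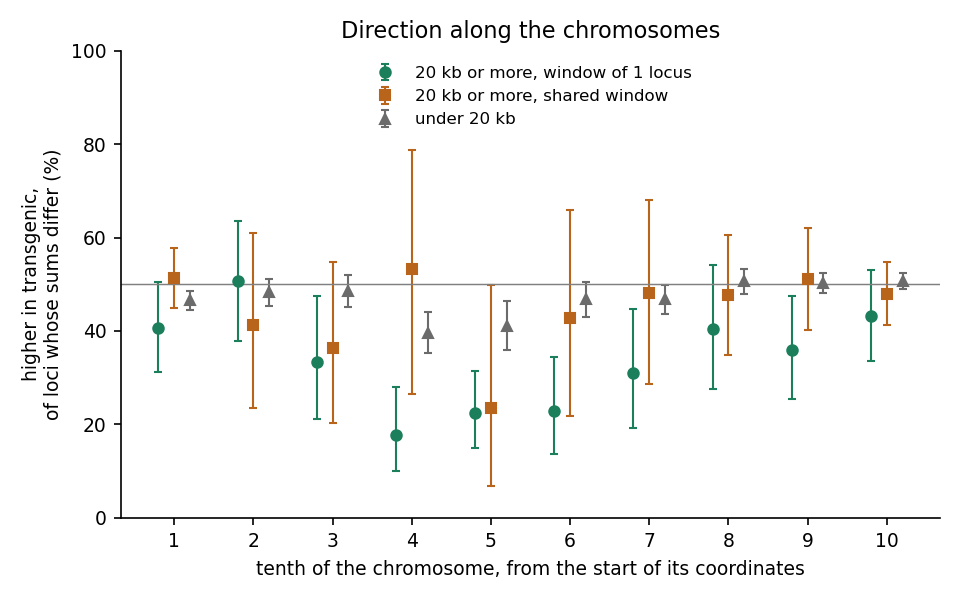
Share of loci with a higher sum in the transgenic group among loci whose sums differ (vertical, percent) in each of 10 equal parts of the chromosomes (horizontal), for long loci alone in their window (circles), long loci in shared windows (squares) and shorter loci (triangles), with exact 95% intervals. Circles are lowest in parts 4 to 6, at 17.7%, 22.4% and 22.9%, where triangles stand at 39.6%, 41.1% and 46.8%.

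Called long loci changed by about 4-fold. The 58 higher in the transgenic group and above 0 in both groups had a median difference of 3.85-fold, with quartiles of 2.54 and 8.05. A further 8 were listed at 0 in wild-type leaves. All 66 together had a median of 43 FPKM in the transgenic group. The 39 lower in the transgenic group and above 0 in both had a median difference of 3.64-fold, with quartiles of 2.62 and 4.73, and 2 more were listed at 0 in the transgenic group. Of all called long loci 61.7% were higher (51.8% to 70.9%), and of shorter ones 62.6%. With unadjusted p, long loci were counted once for each direction in which a transcript passed. Of these 334 counts 42.5% were higher, which leaned the other way, against 53.1% in shorter loci. A locus whose passing transcripts had equal values in both groups was not counted.

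The called loci of highest level were all higher in the transgenic group. These 5 loci, singled out after their values were seen, had at least 500 FPKM in a group, and each lay in a shared window. A locus of 4 transcripts on 2H from 11269750 to 11323830 had 5064 FPKM in transgenic leaves, against 748 FPKM in wild-type leaves, a 6.77-fold difference. One of 10 transcripts on 7H from 14988188 to 15116928 had 1800 FPKM in transgenic leaves, against 158 FPKM in wild-type leaves, or 11.4-fold. Loci on 5H from 615816997 (1574 FPKM in transgenic and 183 in wild-type leaves), on 5H from 662745649 (777 FPKM in transgenic and 131 in wild-type leaves) and on 2H from 6177034 (615 FPKM in transgenic leaves, against 248 FPKM in wild-type leaves) made up the rest. In each, 1 transcript passed.

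The largest rise among calls was in HORVU7Hr1G036470, on 7H from 84846525 to 85031979 in a window of 2 loci, which had 179 FPKM in transgenic leaves and stood at 0 in wild-type leaves. Of its 12 transcripts 2 passed, with 24 and 15 FPKM in the transgenic group. Its most abundant transcript, of 225 nt, had 116 FPKM and did not pass (adjusted p 0.433). HORVU2Hr1G004170, alone in its window on 2H from 9397662 to 9447013, had 452 FPKM in transgenic leaves, against 8 FPKM in wild-type leaves, a 56.5-fold difference that rounding bounds between 42.8-fold and 82.6-fold. All of its 5 transcripts were higher in the transgenic group, and those with 98 against 1 FPKM and 110 against 3 FPKM passed. Its most abundant transcript, of 315 nt, had 240 FPKM in transgenic leaves, against 4 FPKM in wild-type leaves, and did not pass (adjusted p 0.218). The next 8 of the 10 largest rises had between 14 and 69 FPKM in the transgenic group and between 0 and 4 FPKM in wild type, and 7 of them stood alone in their window.

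The largest fall was in HORVU3Hr1G036870, on 3H from 208334818 to 208368758, with 1 FPKM in transgenic leaves, against 181 FPKM in wild-type leaves, a difference that rounding bounds from below at 39.4-fold. One of its 7 transcripts passed, with 1 FPKM in transgenic leaves, against 58 FPKM in wild-type leaves. The other 2 loci of its window had 1 and 6 FPKM in the transgenic group, against 2 and 6 FPKM in wild type. HORVU3Hr1G113210, alone in its window on 3H from 688041803 to 688084440, stood at 0 FPKM in transgenic leaves, against 72 FPKM in wild-type leaves. Of its 4 transcripts 2 passed, with 63 and 7 FPKM in wild type. All 4 of these gene models had a smallest adjusted p of 0.00221, which stands for 5e-05, the smallest p in the authors' deposited table. The other 8 of the 10 largest falls differed by 5.25-fold to 15.7-fold.

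On 7H 26 of 255 long loci held a call (10.2%), against 268 of 2227 shorter loci (12.03%), and in part 2 of its 10 parts 9 of 29 long loci did (31.0%, 15.3% to 50.8%), 7 of them higher in the transgenic group. This part was singled out after its values were seen, and its 29 long loci lay in 20 windows. Part 2 of the other chromosomes had 7 of 68 long loci called (10.3%), and long loci outside that part of 7H had 98 of 1687 (5.81%). Of shorter loci in part 2 of all chromosomes 11.7% held a call. Shorter loci in part 2 of 7H alone were not counted, so whether the share there is particular to long loci was not tested. Many of the calls of long loci in part 2 of 7H came from a stretch from 82159515 to 86794491, chosen after its values were seen. It held 7 long loci in 5 windows. Between them lay 20 shorter loci, whose calls were not counted here. The 7 long loci summed to 384 FPKM in transgenic leaves, against 158 FPKM in wild-type leaves, and 5 held a call for higher and 1 for lower. The first, from 82159515 to 82315426, had 83 FPKM in transgenic leaves, against 10 FPKM in wild-type leaves. Both loci of the window of HORVU7Hr1G036470 and the locus after them were listed at 0 in wild-type leaves. At the end of the stretch a locus from 86739806 to 86794491 ran the other way, with 7 FPKM in transgenic leaves, against 110 FPKM in wild-type leaves. A window on 4H from 638223190 to 638275418 held 2 loci that both fell, to 5 and 6 FPKM in the transgenic group, against 44 and 50 FPKM in wild type.

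Loci listed at 0 in wild-type leaves made up a larger share of long than of shorter loci once a level was required. With at least 5 FPKM in the other group, 38 long loci (2.21%) in 30 windows were listed at 0 in wild-type leaves, against 1.32% of shorter loci and 1.41% of all. Another 10 (0.583%) were at 0 in transgenic leaves, against 0.490% of shorter loci and 0.499% of all. Shared windows held 27 of the 38 (3.10% of their long loci), and windows of 1 locus 11 (1.30%). Of the 38, 7 were called, against 72 of 202 such shorter loci and 79 of 240 of all such loci. Without a minimum level 8.62% of long loci were listed at 0 in wild-type leaves and 6.93% were so in transgenic leaves, against 9.05% and 5.76% of all loci. A listed 0 can be a value under 0.5 FPKM or a failed estimate, and no fold is given for it.

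Several of the largest differences stood in such windows and held no call. They were chosen after their values were seen. On 7H from 113706896 to 113933170, 3 long loci in 2 windows summed to 502 FPKM in transgenic leaves and were listed at 0 in wild-type leaves, with a smallest unadjusted p of 0.102 in the authors' deposited table. A window of 3 loci on 3H from 64030903 to 64371151 had 176 FPKM in transgenic leaves and was listed at 0 in wild-type leaves. A locus alone on 1H from 553651089 to 553709382 had 315 FPKM in the transgenic group, and 1 locus of a window on 7H from 2209634 to 2353258 had 300 FPKM, and both were listed at 0 in wild-type leaves. With 1 value per group, whether 1 sample or both carried this RNA cannot be told.

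The longest windows showed how the span was made up. The 5 loci of largest span all lay in 1 window of 953249 bases at the start of 7H, from 31671 to 984919, which held 17 loci with 59 transcripts. These loci summed to 274 FPKM in transgenic leaves, against 142 FPKM in wild-type leaves, with 12 higher, 4 lower and 1 equal, and none was called. In it 7 loci were listed at 0 in wild-type leaves. A window of 2 loci on 6H from 2265584 to 3171401 had 21 FPKM in transgenic leaves and was listed at 0 in wild-type leaves. A window of 11 loci on 7H from 653463510 to 654284107 had 531 FPKM in transgenic leaves, against 722 FPKM in wild-type leaves. The largest windows of 1 locus, taken after these ties were seen, began with the 2H locus of 22 transcripts named above and a 2H locus of 405529 bases, which had 5 FPKM in transgenic leaves, against 6 FPKM in wild-type leaves. The next 3 were lower in the transgenic group without a call, with 14 against 21 FPKM on 3H from 300213545, 61 against 72 FPKM on 5H from 412980397 and 62 against 102 FPKM on 2H from 61974038.

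Neighbours in a window lay on the same side about as often in long as in shorter windows. In 221 windows of 20 kb or more that held 2 loci, both loci were higher in the transgenic group in 56, both lower in 60 and opposite in 56, so that 67.4% of the pairs in which both differed shared a direction, against 64.5% in shorter windows.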

How the data were processed

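The authors deposited 1 FPKM value per group and transcript as whole numbers, per the file headers, and these were treated as a score and not as counts. The p-value of each transcript is the authors', from the deposited table, whose test is not stated. Per the submitters' processing notes the tools were STAR, Bowtie2, RSEM and DESeq2, with no versions or roles, and the genome build was not given in the sources used here. It is not stated how 2 samples became 1 value, nor that they were separate plants, so a p-value covers at most the spread of these samples, which may be technical.

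From these files, FPKM was summed per locus identifier with Python 3.11.15, pandas 2.3.3 and scipy 1.17.1, with a pseudocount of 1 on the log2 scale and no filter on low values. P-values were adjusted by the Benjamini-Hochberg method over 51141 transcripts, and the adjustment was tested on simulated data. For matched values, shorter loci were weighted to the long loci's numbers per class of level, with edges at 1, 2, 5, 10, 20, 50 and 100 FPKM, and, where named, per class of transcript number (1 to 6 or more), longest transcript or place along the chromosome, in 10 equal parts of the length up to the last position listed. Starts in the table count from 0, and 1 was added. Loci named are the 10 largest rises and falls on log2(sum + 1) among called loci with at least 5 FPKM in a group, the 5 highest, the 5 of largest span and those at the threshold. Identifiers are printed for 2 that rose and 2 that fell, because the table pairs none with a product and 0 of their 17046 HORVU names occurred in the barley gene table at hand. The long loci and the lists were chosen with earlier results of these data known.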

Additional observations from a re-analysis of the deposited data

How the results depend on the processing

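The 7 values that sum up the long loci (share holding a call, share higher in the transgenic group, share of calls that were higher, medians of change, level and transcript number, and share of "j" transcripts) were recomputed under other settings, which gave 69 values. Of these 49 stayed within the interval of the value reported, and 20 moved beyond it. The share of calls that were higher crossed 50% under 1 setting and the median change reached 0 under another, both given here; the cause was not tested. The share holding a call was 8.57% with at least 5 FPKM in a group, 19.6% with unadjusted p, 2.80% with adjusted p and a 4-fold change above 0 in both groups, 7.57% in windows of 1 locus and 8.83% with 1 value per window, against 15.4%, 29.0%, 4.71%, 12.9% and 12.8% in shorter loci. The share higher in the transgenic group was 46.4% from 50 kb, 48.0% with ratios centred, where equal sums become higher, 33.7% in windows of 1 locus and 37.3% per window. In shorter loci these shares were 47.8% (under 50 kb), 54.9%, 48.7% and 48.6%. With an unadjusted p under 0.05, 42.5% of the 334 counts of long loci by direction were higher (37.2% to 48.0%), against 61.7% of long loci holding a call. The median log2 change was 0 from 50 kb, -0.23 with at least 5 FPKM, -0.32 in windows of 1 locus and -0.25 per window. In shorter loci these medians were 0 (under 50 kb), -0.09, 0 and 0. With ratios centred the median of long loci stayed within the interval reported, at -0.08, but its own interval (-0.13 to 0.02) included 0. That of shorter loci was then 0.09. The median level was 15 FPKM with at least 5 FPKM and 13 FPKM per window. The median number of transcripts was 2 from 50 kb and 4 with at least 5 FPKM and per window. The share of "j" transcripts was 5.60% from 50 kb. Settings by window and without 7H were chosen after seeing the data. No paired analysis was possible because each group has a single value per transcript, and for the same reason no replicate could be left out. Rounding to whole FPKM limits what can be said of low loci.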
